A study of Mus musculus with 6 samples.

Results

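AP-1 is the dimeric transcription factor built from Fos, Jun and related proteins, and its RNA was described here in 10 genes, chosen by symbol: Fos, Fosb, Fosl2, Jun, Junb, Jund, Atf3, Batf, Maff and Mafk. Their Ensembl identifiers were found among the 28786 gene identifiers of the count table, all 10 were present, and all 10 were among the 13662 genes that passed a filter on low counts. The RNA came from haematopoietic stem cells (HSCs) sorted from the bone marrow of C57BL/6 mice, wild type and 6 to 8 weeks old, as Lin-, Sca-1+, c-Kit+, CD48- and CD150+, with 1500 cells in each library. A group of 3 libraries was labelled TMRM-High and another of 3 was labelled TMRM-Low, after a fluorescent dye that mitochondria take up according to their membrane potential. Whether separate mice gave the libraries of a group is not stated, so the p-values reflect only how much these libraries vary, and that variation may be technical.

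Fos, Fosb and Fosl2 proteins pair poorly with themselves and bind DNA as partners of Jun, Junb or Jund, through a basic region and a leucine zipper (bZIP). Many of these genes are immediate early genes: their transcription starts within minutes of a growth factor, cytokine or stress signal, through mitogen-activated protein (MAP) kinases and factors already present in the cell, and their RNA is short-lived. Such genes are also known to respond to tissue dissociation and cell sorting. Atf3 and Batf are bZIP relatives that mostly repress or that redirect AP-1, and the small Maf proteins Maff and Mafk lack an activation domain and pair with Nfe2 and Bach proteins as well as with Fos. In blood cells Junb is known as a brake on the growth of stem and myeloid cells.

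The promoters of the genes with the largest changes, Fosb and Atf3, and of the prototype genes Fos and Jun are shown because all of them were called higher, by unequal folds, and so that the letters around their start sites can be read beside the values. Each line gives 300 bases from RefSeq (build GRCm38.p6), 250 before to 50 after the annotated start, 5′ to 3′ on the strand of the gene. They lie at chr12:85473640-85473939 on the plus strand (Fos), and on the minus strand at chr7:19309996-19310295 (Fosb), chr4:95052173-95052472 (Jun) and chr1:191183284-191183583 (Atf3). Capitals mark matches to TGACG, TGACATCA and TATAAA on either strand.
Fos: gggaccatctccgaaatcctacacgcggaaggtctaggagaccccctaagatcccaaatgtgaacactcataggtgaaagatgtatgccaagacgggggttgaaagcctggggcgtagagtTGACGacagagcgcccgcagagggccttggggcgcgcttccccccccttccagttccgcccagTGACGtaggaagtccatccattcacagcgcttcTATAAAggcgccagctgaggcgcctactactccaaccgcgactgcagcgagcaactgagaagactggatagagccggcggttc
Fosb: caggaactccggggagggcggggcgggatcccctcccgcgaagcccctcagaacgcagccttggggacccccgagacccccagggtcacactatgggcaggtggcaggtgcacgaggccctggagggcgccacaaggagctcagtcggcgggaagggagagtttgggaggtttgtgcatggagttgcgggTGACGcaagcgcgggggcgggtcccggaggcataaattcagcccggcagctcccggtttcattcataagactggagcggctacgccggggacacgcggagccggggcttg
Jun: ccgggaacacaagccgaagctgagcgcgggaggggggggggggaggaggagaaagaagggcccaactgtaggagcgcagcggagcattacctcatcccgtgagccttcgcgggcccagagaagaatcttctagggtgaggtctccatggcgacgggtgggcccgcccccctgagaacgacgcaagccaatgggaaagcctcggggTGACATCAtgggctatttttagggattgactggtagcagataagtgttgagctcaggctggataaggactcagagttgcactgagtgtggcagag
Atf3: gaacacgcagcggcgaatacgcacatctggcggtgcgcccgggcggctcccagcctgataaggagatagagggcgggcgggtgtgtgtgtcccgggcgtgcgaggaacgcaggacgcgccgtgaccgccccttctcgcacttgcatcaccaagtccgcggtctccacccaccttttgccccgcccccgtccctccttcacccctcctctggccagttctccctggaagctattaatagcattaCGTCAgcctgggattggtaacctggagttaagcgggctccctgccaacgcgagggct
The Fos window holds TGACG with its first base 129 and 66 bases before the start, and TATAAA 33 bases before it. The Fosb window holds TGACG 60 bases before the start. The Jun window holds TGACATCA 45 bases before the start, the variant that is known from the Jun promoter as a site of Jun and Atf2. The Atf3 window holds TGACG on the opposite strand, 7 bases before the start.

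All 10 members had a promoter in RefSeq, 12 windows in all because Maff has 3. TGACG, the core of the cAMP response element, was added to the search after the sequences were read. It was found in 8 of the 12 windows, which belong to 7 of the 10 members, and in 20.8% of all 32851 promoters. The windows held 46.7% (Jund) to 68.3% (Fosb and Mafk) G and C. Most lay above the median of all promoters, 52.7%, and the shares were not matched for this. The full element TGACGTCA, which contains TGACG, was in 1 member, Maff, and in 1.79% of all promoters. TGACATCA was in Jun and Maff and in 3.62% of all promoters, and TATAAA in Fos and Junb and in 13.6% of all. TGACTCA, the classical AP-1 site, was in none of the 12 windows and in 5.20% of all promoters. The CArG box bound by serum response factor (SRF) was also in none, and in 1.63% of all promoters. Sites more than 250 bases before the start were not searched. The RefSeq window of Jund ends upstream of the GENCODE start of that gene. The windows of Atf3 and Fosl2, and some of those of Maff, lie inside the GENCODE span of the gene, downstream of its start. These matches describe letters in a window and not binding.

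RNA of most AP-1 genes was higher in TMRM-High than in TMRM-Low libraries. Of the 10 members, 7 were called higher (Fos, Fosb, Jun, Junb, Jund, Atf3 and Mafk). None was called lower and 3 did not pass (Fosl2, Batf and Maff). Of all genes tested, 5.84% were called higher and 5.12% lower, 11.0% in all. The members were chosen with earlier results of these data known, so these counts describe the members and are no test of them. The median log2 fold change of the 10 members, TMRM-High minus TMRM-Low, was 0.76, beside -0.03 over all genes tested. In 8 members every TMRM-High library was above every TMRM-Low library, in Batf every TMRM-High library was below, and in Fosl2 the groups overlapped. Over all genes tested, 18.4% were above in this way and 17.0% were below, 35.4% in all. Levels are given as CPM, counts relative to the scaled library size, and a call means an edgeR quasi-likelihood p that stays below 0.05 after Benjamini-Hochberg adjustment over all genes.

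**Figure D1:**
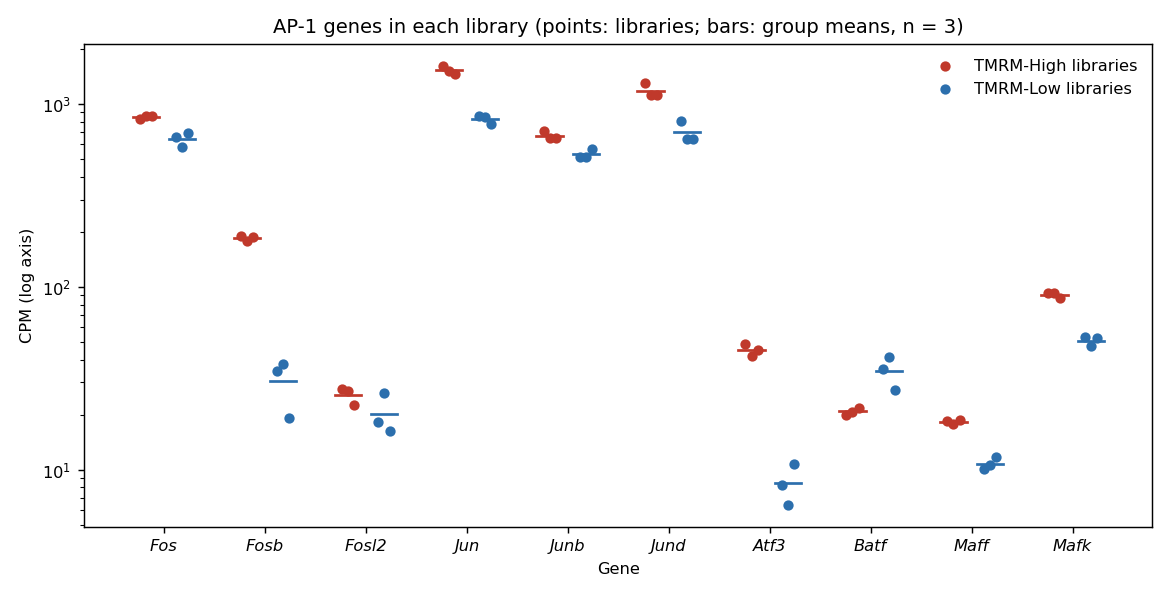
CPM (log axis) of the 10 AP-1 genes in each of the 3 TMRM-High and 3 TMRM-Low libraries, with points for libraries and bars for group means. The groups are apart in every gene but Fosl2, and Batf alone is lower in TMRM-High libraries.

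Fos (ENSMUSG00000021250, chromosome 12, 85473890 to 85477273 on GRCm38, plus strand) encodes the founding member of the family. It had 830, 856 and 858 CPM in TMRM-High libraries, against 656, 580 and 696 CPM in TMRM-Low libraries. The groups did not overlap, and the TMRM-High libraries lay closer together than the TMRM-Low libraries. The fold was 1.32 (log2 fold change 0.40, SE 0.0715, edgeR adjusted p = 0.0134).

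Fosb (ENSMUSG00000003545, chromosome 7, 19302696 to 19310051, minus strand), a paralogue whose products include a truncated form that accumulates after repeated stimulation in neurons, changed most of the 10. It had 188, 178 and 187 CPM in TMRM-High libraries, against 34.8, 37.8 and 19.1 CPM in TMRM-Low libraries. The lowest value was TMRM-Low replicate 3, and the lowest TMRM-High library was far above the highest TMRM-Low library. The fold was 6.03 (log2 fold change 2.59, SE 0.238, adjusted p = 0.000608). Within the Fos family the rise was thus unequal: the log2 ratio of Fosb to Fos CPM was -2.14, -2.27 and -2.20 in TMRM-High libraries, against -4.24, -3.94 and -5.19 in TMRM-Low libraries, with no overlap.

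Fosl2 (ENSMUSG00000029135, chromosome 5, 32135801 to 32157842, plus strand) encodes Fra-2, a Fos protein without the strong activation domain of Fos. It had 27.7, 26.9 and 22.5 CPM in TMRM-High libraries, against 18.2, 26.2 and 16.3 CPM in TMRM-Low libraries. The groups overlapped through TMRM-Low replicate 2, and the difference did not pass (log2 fold change 0.35, SE 0.243, adjusted p = 0.429). The ratio of Fosl2 to Fos overlapped between the groups as well. Fosl1, the remaining Fos gene and no member of the 10, had 50, 34 and 29 counts in TMRM-High libraries, against 3, 1 and 3 counts in TMRM-Low libraries (log2 fold change 3.84, SE 0.677, adjusted p = 0.0115). That call rests on few counts and was lost without any 1 TMRM-High library and with limma voom (adjusted p = 0.102).

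Jun (ENSMUSG00000052684, chromosome 4, 95049034 to 95052222, minus strand), the strongest activator of the Jun family, was higher with the smallest p of the 10 genes. It had 1612, 1504 and 1465 CPM in TMRM-High libraries, against 862, 848 and 773 CPM in TMRM-Low libraries. All 3 TMRM-High libraries were well above the TMRM-Low libraries, and the fold was 1.84 (log2 fold change 0.88, SE 0.0612, adjusted p = 0.000166).

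Junb (ENSMUSG00000052837, chromosome 8, 84974484 to 84978718, minus strand), whose product restrains proliferation, had 711, 654 and 648 CPM in TMRM-High libraries, against 511, 513 and 568 CPM in TMRM-Low libraries. The groups did not overlap, but TMRM-Low replicate 3 came nearer to the TMRM-High libraries than the other two. The fold of 1.26 was the smallest of the called members (log2 fold change 0.34, SE 0.0657, adjusted p = 0.0177). Jund (ENSMUSG00000071076, chromosome 8, 70698949 to 70700616, plus strand), the Jun gene that is expressed most steadily in resting cells, had 1297, 1117 and 1123 CPM in TMRM-High libraries, against 809, 642 and 642 CPM in TMRM-Low libraries. Replicate 1 was the highest library of each group, and the fold was 1.69 (log2 fold change 0.76, SE 0.105, adjusted p = 0.00453).

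The Jun genes therefore did not shift in 1 proportion. The log2 ratio of Jun to Junb CPM was 1.18, 1.20 and 1.18 in TMRM-High libraries, against 0.76, 0.72 and 0.45 in TMRM-Low libraries, with no overlap. The log2 ratio of Jun to Jund overlapped between the groups (0.38 ± 0.0585 in TMRM-High, 0.25 ± 0.156 in TMRM-Low libraries, mean ± SD, n = 3 each). The log2 ratio of Fos to Jun was lower in every TMRM-High library (-0.85 ± 0.0979) than in any TMRM-Low library (-0.36 ± 0.201). Jun, Junb and Jund are each encoded by a single exon in their longest coding transcript, so their reads cannot be told from unspliced or genomic sequence by splicing. The reads carry no strand, and these genes overlap neighbours on the other strand: Jun overlaps Junos over 689 bases, Jund overlaps Gm11175 over 919 bases and Junb overlaps Prdx2 over 173 bases of exon, each counted against the whole span of the neighbour. Gm11175 held a mean of 21.8 counts, Prdx2 held 6393 counts, and Junos was not analysed here.

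Atf3 (ENSMUSG00000026628, chromosome 1, 191170296 to 191218039, minus strand) encodes a stress-induced bZIP protein that represses as a homodimer and also pairs with Jun proteins. It had 48.6, 42.1 and 45.3 CPM in TMRM-High libraries, against 8.22, 6.43 and 10.8 CPM in TMRM-Low libraries. Every TMRM-High library was several-fold above every TMRM-Low library, and the fold was 5.34 (log2 fold change 2.42, SE 0.240, adjusted p = 0.000789). The log2 ratio of Atf3 to Jun was -5.05, -5.16 and -5.02 in TMRM-High libraries, against -6.71, -7.04 and -6.16 in TMRM-Low libraries, again apart.

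Batf (ENSMUSG00000034266, chromosome 12, 85686669 to 85709087, plus strand), known from mouse HSCs as an inducer of lymphoid differentiation upon DNA damage and from lymphocytes as a partner of Jun proteins and interferon regulatory factors, was the only member with a negative estimate. It had 20.004, 20.7 and 21.7 CPM in TMRM-High libraries, against 35.6, 41.1 and 27.3 CPM in TMRM-Low libraries. The groups did not overlap, with TMRM-Low replicate 3 nearest to the TMRM-High libraries. The difference missed the threshold (log2 fold change -0.74, SE 0.207, adjusted p = 0.0617), and it passed with DESeq2 (adjusted p = 0.00669), with limma voom (0.0392) and without TMRM-Low replicate 3 (0.0150). In the remaining 12 of 15 alternatives Batf stayed uncalled. Its paralogues Batf2 and Batf3 had negative estimates too and did not pass in edgeR. Batf2 averaged 1.85 ± 0.174 CPM in TMRM-High, against 5.14 ± 2.01 CPM in TMRM-Low libraries (log2 fold change -1.47, SE 0.511, adjusted p = 0.115). Batf3 averaged 0.914 ± 0.453 CPM in TMRM-High, against 3.65 ± 1.02 CPM in TMRM-Low libraries (-1.98, SE 0.587, adjusted p = 0.0716). With DESeq2 both passed (adjusted p = 0.0393 and 0.0176), and Batf2 also passed without TMRM-Low replicate 3 (0.0257).

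Of the small Maf genes, Mafk was called higher and Maff was not called. Mafk (ENSMUSG00000018143, chromosome 5, 139791513 to 139802653, plus strand), a partner of Nfe2 and Bach1, had 92.3, 92.2 and 87.1 CPM in TMRM-High libraries, against 52.9, 47.2 and 52.3 CPM in TMRM-Low libraries. The groups were far apart, and the fold was 1.78 (log2 fold change 0.83, SE 0.110, adjusted p = 0.00324). Maff (ENSMUSG00000042622, chromosome 15, 79346621 to 79359076, plus strand), the stress-responsive small Maf, had 18.4, 17.9 and 18.7 CPM in TMRM-High libraries, against 10.1, 10.6 and 11.7 CPM in TMRM-Low libraries. Its groups were apart too, at low counts, and it did not pass (log2 fold change 0.76, SE 0.234, adjusted p = 0.0796). It passed with DESeq2 (adjusted p = 0.00376) and without TMRM-Low replicate 3 (0.0372), and stayed uncalled in the remaining 13 of 15 alternatives. The log2 ratio of Maff to Mafk overlapped between the groups (-2.30 ± 0.0792 in TMRM-High, -2.23 ± 0.133 in TMRM-Low libraries, SD, n = 3 each).

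**Figure D2:**
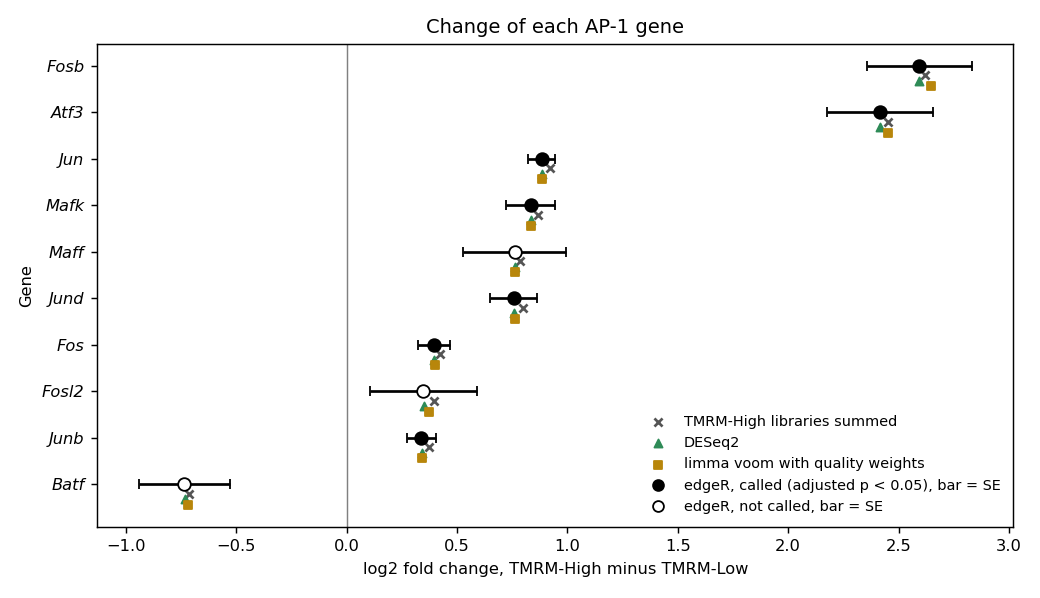
Log2 fold change (TMRM-High minus TMRM-Low) of each AP-1 gene with its SE from edgeR, filled where called, and beside it the estimate with TMRM-High libraries summed, with DESeq2 and with limma voom. Fosb and Atf3 stand at 2.59 and 2.42, the other called members between 0.34 and 0.88, and the estimates of the 4 methods lie close together.

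How firmly these calls stand depends on the TMRM-High libraries being separate replicates. It also depends on the fit, which assumed the same spread of a gene in both groups. The common coefficient of variation beyond counting noise was 7.28% among TMRM-High and 42.5% among TMRM-Low libraries. Pairs of TMRM-High libraries had a chi-square of 3.98 to 6.74 per degree of freedom over genes with at least 20 counts, and pairs of TMRM-Low libraries had 46.0 to 51.4. A value near 1 would be counting noise. When the TMRM-High counts were added up as 1 library, so that the spread came from the TMRM-Low libraries, Fosb (adjusted p = 0.0237) and Jun (0.0120) remained called, and Fos (0.497), Junb (0.561), Jund (0.0822), Atf3 (0.156) and Mafk (0.496) were not. Fos and Junb also lost their calls without any 1 TMRM-High library, with adjusted p-values of 0.0633 to 0.0850 for Fos and 0.0758 to 0.0979 for Junb. No member changed sign under any of the 15 alternatives. Among TMRM-High libraries the coefficient of variation was 4.99% for Jun, 3.11% for Fosb and 7.19% for Atf3. Among TMRM-Low libraries it was 5.79% for Jun, 32.8% for Fosb and 25.8% for Atf3.

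Taking the 10 genes together, they held 0.484%, 0.455% and 0.452% of all counts in TMRM-High libraries, against 0.291%, 0.277% and 0.281% in TMRM-Low libraries. Their summed level was 4610 ± 205 CPM in TMRM-High, against 2856 ± 127 CPM in TMRM-Low libraries (SD, n = 3 each), 1.61-fold higher. Per length, as CPM per kilobase of merged exons, the highest mean level in TMRM-High libraries was that of Jund (707), then Jun (479), Fos (360) and Junb (292), whose values did not overlap from gene to gene. Far below followed Fosb (29.5), Mafk (23.2), Atf3 (21.0), Batf (14.8), Maff (7.07) and Fosl2 (2.66), where only Mafk and Atf3 overlapped.

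In TMRM-Low libraries the order per length was Jund (418), Fos (274), Jun (260), Junb (231), Batf (24.7), Mafk (13.0), Fosb (4.90), Maff (4.17), Atf3 (3.93) and Fosl2 (2.09). There the values of Fos, Jun and Junb all overlapped with each other, as did those of Fosb, Maff and Atf3. Jun stood above Fos in TMRM-High and below it in TMRM-Low libraries on this scale, and Fosb and Atf3 stood above Batf in TMRM-High and below it in TMRM-Low libraries. With the longest coding transcript as the length, Junb (293) stood above Jun (260) in TMRM-Low libraries and no other neighbours changed places. Of the summed level per length, Jun made up 24.7%, 25.0% and 24.5% in TMRM-High libraries, against 20.6%, 22.6% and 19.9% in TMRM-Low libraries, and Fosb 1.48%, 1.51% and 1.59% in TMRM-High, against 0.426%, 0.514% and 0.251% in TMRM-Low libraries. Junb made up 15.1%, 15.1% and 15.0% in TMRM-High libraries, against 16.9%, 18.9% and 20.3% in TMRM-Low libraries. The shares of these 3 genes did not overlap between groups.

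**Figure D3:**
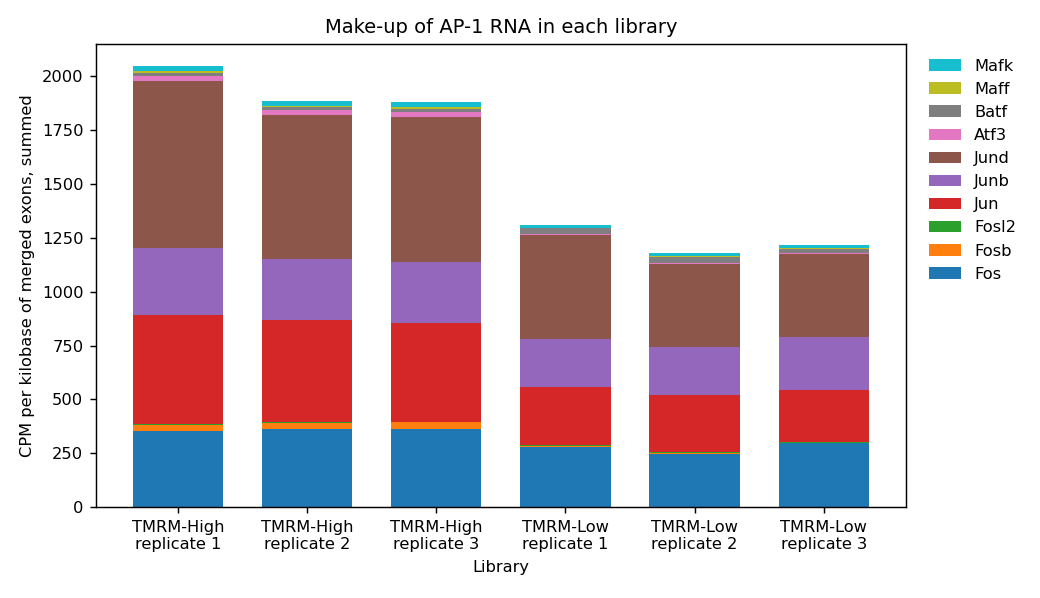
CPM per kilobase of merged exons of the 10 AP-1 genes, stacked for each library. The bars of TMRM-High libraries reach 1877 to 2046 and those of TMRM-Low libraries 1178 to 1310, and Jund, Jun, Fos and Junb make up most of every bar.

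The libraries of 1 group were not alike in all members. TMRM-High replicate 1 had the highest Jun, Junb and Jund of its group and the lowest Fos and Batf. Over the 10 members, chi-square per gene was 35.98 and 35.05 in the pairs with that library and 2.49 between the other two. Without it the log2 fold change of Jun was 0.85, that of Jund stayed positive and called, and the log2 difference of the summed level was 0.65, beside 0.69 with all libraries. Counts were whole numbers in all libraries for 7 members, while 1 count of Jun, 3 of Jund and 4 of Mafk were not whole, as happens where reads are divided between transcripts of different genes.

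Genes that pair with or relate to AP-1 did not move as a block. The 20 other bZIP genes, all tested, had a median log2 fold change of -0.09. Of them, 5 were called higher and none lower, beside 5.84% and 5.12% of all genes. Besides Fosl1 these were Atf4, Ddit3, Mafg and Bach1, the last named after its values were seen. Atf4, the effector of the integrated stress response, averaged 383 ± 15.5 CPM in TMRM-High, against 241 ± 21.1 CPM in TMRM-Low libraries (log2 fold change 0.67, SE 0.0788, adjusted p = 0.00192). Its target Ddit3 averaged 47.4 ± 3.47 CPM in TMRM-High, against 20.9 ± 3.51 CPM in TMRM-Low libraries (1.18, SE 0.182, adjusted p = 0.00672). Mafg, the remaining small Maf gene, averaged 90.9 ± 4.50 CPM in TMRM-High, against 53.9 ± 2.37 CPM in TMRM-Low libraries (0.75, SE 0.107, adjusted p = 0.00469), so that the small Maf genes all had higher means in TMRM-High libraries. Bach1, a repressor that binds DNA with small Maf proteins, averaged 30.9 ± 1.57 CPM in TMRM-High, against 14.8 ± 3.07 CPM in TMRM-Low libraries (1.06, SE 0.221, adjusted p = 0.0226). Maf, the founding gene of its family, had a negative estimate and did not pass in edgeR. It averaged 3.54 ± 0.629 CPM in TMRM-High, against 10.9 ± 5.77 CPM in TMRM-Low libraries (-1.61, SE 0.459, adjusted p = 0.0652), and passed with DESeq2 (0.00779), with limma voom (0.0264) and without TMRM-Low replicate 1 (0.0464) or 3 (0.0333). Without TMRM-High replicate 1, Mafg and Ddit3 were no longer called (adjusted p = 0.0510 and 0.0603), Bach1 was not called without any 1 TMRM-High library (0.117 to 0.145), and no bZIP call of this list was left with the TMRM-High libraries summed.

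All 23 MAP kinase and SRF pathway genes listed as upstream of AP-1 were tested, with a median log2 fold change of 0.01. Of these, 2 were called higher and 1 lower, beside 5.84% and 5.12% of all genes. Mapk3, which encodes the kinase ERK1, was at 83.1 ± 4.94 CPM in TMRM-High, against 56.6 ± 3.26 CPM in TMRM-Low libraries (log2 fold change 0.55, SE 0.113, adjusted p = 0.0207). Mef2d was higher (log2 fold change 0.38, SE 0.0927, adjusted p = 0.0403) and Mef2c lower (-0.31, SE 0.0778, 0.0435). These 3 calls were lost without any 1 TMRM-High library and with the TMRM-High libraries summed, and those of Mef2d and Mef2c also without a low-count filter (adjusted p = 0.0723 and 0.0693), with limma voom for Mef2d (0.0885) and with total-count scaling for Mef2c (0.0571). The RNA of a kinase does not measure its activity.

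Of 15 genes taken from textbooks as AP-1 targets, 14 were tested, with a median of 0.16. Of these, 2 were called higher and 1 lower, beside 5.84% and 5.12% of all genes. The metallothionein gene Mt1 was at 106 ± 6.18 CPM in TMRM-High, against 51.4 ± 7.01 CPM in TMRM-Low libraries (log2 fold change 1.05, SE 0.130, adjusted p = 0.00239). The cytokine gene Tnf averaged 34.0 ± 3.01 CPM in TMRM-High, against 5.52 ± 3.40 CPM in TMRM-Low libraries (2.62, SE 0.470, 0.0130), a call that needed all 3 TMRM-High libraries. Vim, which encodes the filament protein vimentin, was lower and averaged 176 ± 6.85 CPM in TMRM-High, against 296 ± 11.1 CPM in TMRM-Low libraries (-0.75, SE 0.0681, 0.000517). Ccnd1, the cyclin D1 gene, had 12.1 ± 1.14 CPM in TMRM-High, against 26.3 ± 13.6 CPM in TMRM-Low libraries, with overlapping groups, and did not pass (adjusted p = 0.129). It passed with DESeq2 (0.0433) and without TMRM-Low replicate 2 (0.0125), and it was named after its values were seen. With the TMRM-High libraries summed, none of these targets was called.

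Of 9 genes whose products degrade Fos or Jun protein or act on their RNA, Zfp36 alone was called, beside 11.0% of all genes. It encodes a protein that binds AU-rich elements and speeds the decay of RNAs such as that of Fos, and it was at 1298 ± 24.9 CPM in TMRM-High, against 661 ± 33.4 CPM in TMRM-Low libraries (log2 fold change 0.97, SE 0.0529, adjusted p = 5.4e-05). Its relative Zfp36l2 averaged 607 ± 10.9 CPM in TMRM-High, against 570 ± 4.17 CPM in TMRM-Low libraries and did not pass (0.09, SE 0.0471, adjusted p = 0.274). The ubiquitin ligase genes of Jun did not pass: Fbxw7 (log2 fold change 0.37, adjusted p = 0.320), Cop1 (0.58, 0.0782) and Itch (0.34, 0.218). Det1, listed with them, had a negative estimate and did not pass either (-0.21, 0.750). The groups overlapped in Det1, while in Fbxw7, Cop1 and Itch every TMRM-High library was above every TMRM-Low library. This held for 5 of the 9 genes, while the groups overlapped in 4, beside 18.4% of all genes above in this way.

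Immediate early genes outside the AP-1 family were mostly higher as well. Of 22 listed genes, 20 were tested, and the median log2 fold change was 0.82. Of these, 14 were called higher and 1 lower, beside 5.84% and 5.12% of all genes. This list, too, was chosen with earlier results of these data known. Egr1, a zinc finger transcription factor gene, averaged 875 ± 28.7 CPM in TMRM-High, against 377 ± 26.5 CPM in TMRM-Low libraries (log2 fold change 1.21, SE 0.0654, adjusted p = 5.65e-05). Dusp2, which encodes a phosphatase of MAP kinases, averaged 585 ± 9.28 CPM in TMRM-High, against 234 ± 15.3 CPM in TMRM-Low libraries (1.32, SE 0.0653, 2.95e-05). Btg2, an antiproliferative gene, averaged 529 ± 15.2 CPM in TMRM-High, against 206 ± 18.6 CPM in TMRM-Low libraries (1.36, SE 0.0786, 8.07e-05). Nfkbia, the gene of an inhibitor of NF-kappaB, averaged 616 ± 16.7 CPM in TMRM-High, against 203 ± 27.0 CPM in TMRM-Low libraries (1.60, SE 0.0996, 0.000102). These 4 calls held under all 15 alternatives. Nr4a1 was higher by 0.35 (SE 0.0591, 0.00988), while Nr4a2 was at 19.5 ± 0.988 CPM in TMRM-High, against 30.6 ± 3.37 CPM in TMRM-Low libraries and did not pass (adjusted p = 0.0644; 0.00406 with DESeq2, and 0.0420 and 0.0372 without TMRM-Low replicate 2 or 3). The gene called lower was Myc, which averaged 239 ± 4.43 CPM in TMRM-High, against 354 ± 24.7 CPM in TMRM-Low libraries (log2 fold change -0.57, SE 0.0697, adjusted p = 0.00222). With the TMRM-High libraries summed, Nr4a1 (adjusted p = 0.549) and Myc (0.383) were not called, and Nr4a1 was not called without any 1 TMRM-High library (0.0577 to 0.0648). Nr4a1, Nr4a2 and Myc were chosen after their values were seen. These genes respond to handling of cells as AP-1 genes do; the part of handling in the AP-1 differences was not tested.

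**Figure D4:**
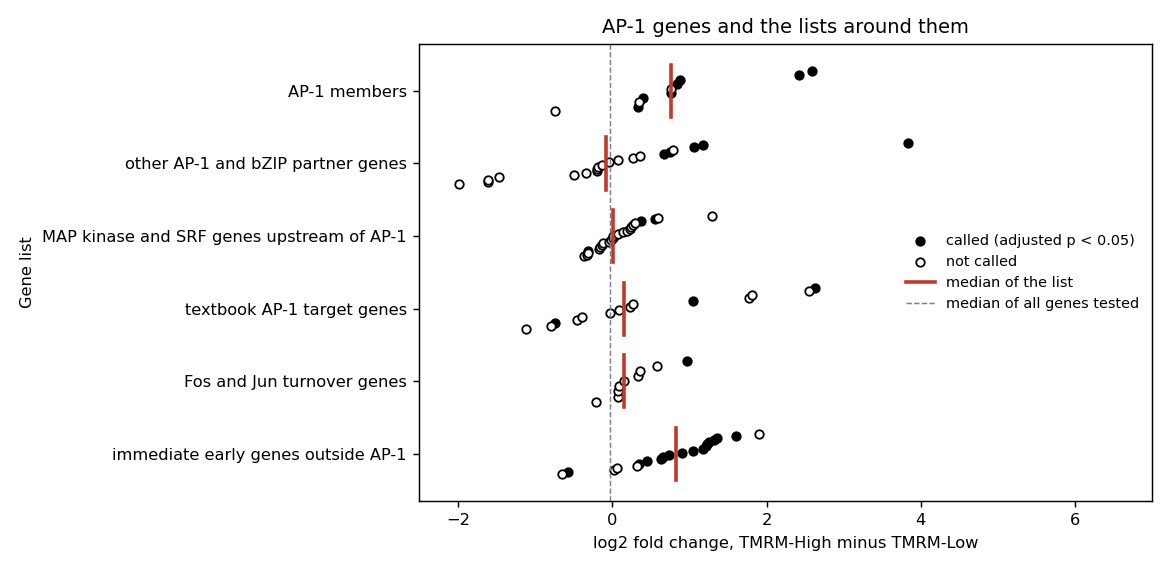
Log2 fold change (TMRM-High minus TMRM-Low) of the tested genes of 6 lists, filled where called, with the median of each list and of all genes tested. The AP-1 genes (median 0.76) and other immediate early genes (0.82) lie mostly to the right, and the lists of bZIP partners, upstream kinases, targets and turnover genes have medians between -0.09 and 0.16.

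By likeness of log2 CPM over the 6 libraries, Jun was closest to Tango2 (Pearson r = 0.9972), Mafg, Zfp36, Cd79b and Lrg1 (0.9966) among 9968 genes with a symbol and a mean of at least 5 CPM. Fos was closest to Nup93 (0.9988), Dlst, Slc20a1, Gmip and Cstb (0.9968). Atf3 was closest to H2afz (0.9988), Mkks, Rflnb, Wfdc21 and Pf4 (0.9978). The libraries form 2 groups, and any gene with a clear difference between them reaches a high r.

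Markers of other cell types differed between the same libraries, and in bulk RNA fewer cells of a type and less RNA per cell cannot be told apart. The calls below stand beside 5.84% higher and 5.12% lower over all genes. Of the listed markers, 8 megakaryocyte, 11 erythroid, 9 T and NK and 12 macrophage and dendritic cell genes were tested. In the other marker lists all genes were tested. Summed levels of 16 granulocyte and monocyte markers were 15958 to 16359 CPM in TMRM-High, against 4355 to 4709 CPM in TMRM-Low libraries, with 13 called higher and 1 lower. Those of 12 B lymphoid markers were 2062 to 2087 CPM in TMRM-High, against 542 to 627 CPM in TMRM-Low libraries (11 higher, none lower). Those of 9 basophil, mast cell and eosinophil markers were 334 to 351 CPM in TMRM-High, against 46.8 to 75.0 CPM in TMRM-Low libraries (6 higher, none lower). Those of 9 megakaryocyte markers were 410 to 418 CPM in TMRM-High, against 110 to 142 CPM in TMRM-Low libraries (2 higher, none lower). Of 12 erythroid markers 5 were higher and 1 lower (606 to 631 CPM in TMRM-High, 639 to 769 CPM in TMRM-Low libraries), and Car2, the 1 lower, carried much of that sum with 316 ± 7.13 CPM in TMRM-High, against 552 ± 54.5 CPM in TMRM-Low libraries. Of 11 T and NK markers 1 was higher and 5 lower (634 to 645 CPM in TMRM-High, 418 to 493 CPM in TMRM-Low libraries), and Nkg7, the 1 higher, carried much of that sum with 556 ± 6.18 CPM in TMRM-High, against 218 ± 24.1 CPM in TMRM-Low libraries. Of 13 macrophage and dendritic cell markers 1 was higher and 6 lower (433 to 442 CPM in TMRM-High, 838 to 919 CPM in TMRM-Low libraries). Vcam1, the 1 higher, averaged 94.1 ± 3.47 CPM in TMRM-High, against 0.566 ± 0.534 CPM in TMRM-Low libraries. Much of the TMRM-Low sum came from Cd74 (263 ± 18.9 CPM) and H2-Ab1 (262 ± 32.0 CPM), both called lower. HSC identity genes summed to 1650 to 1673 CPM in TMRM-High, against 2709 to 2839 CPM in TMRM-Low libraries, with 1 of 20 higher and 8 lower. Epx and Ms4a1 had no count in TMRM-Low libraries, and no marker was at 0 in all 3 TMRM-High libraries. Of the genes behind the sorting gate, Ly6a, the gene of Sca-1, was lower and averaged 30.3 ± 2.18 CPM in TMRM-High, against 167 ± 7.77 CPM in TMRM-Low libraries (log2 fold change -2.47, SE 0.103, adjusted p = 1.01e-05), and the other genes named here did not pass. Slamf1, the gene of CD150, averaged 5.53 ± 0.569 CPM in TMRM-High, against 5.13 ± 3.98 CPM in TMRM-Low libraries (adjusted p = 0.944), and Cd48, whose protein the gate excludes, 147 ± 2.82 CPM in TMRM-High, against 137 ± 22.6 CPM in TMRM-Low libraries (0.653). Kit averaged 263 ± 4.93 CPM in TMRM-High, against 248 ± 53.9 CPM in TMRM-Low libraries (0.778). The part of these cell type markers in the AP-1 differences was not tested.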

How the data were processed

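Per the labels' protocols, RNA of 1500 sorted cells per library was turned into full-length cDNA by a low-input protocol, amplified by 13 PCR cycles, tagmented and sequenced as paired reads of 150 bases, without strand or molecular identifiers. Salmon (listed as 0.03.1), Trim Galore 0.5.0 and build GRCm38 were used, per the submitters' processing notes, and neither annotation nor settings are stated. The authors deposited estimated counts for Ensembl genes, without scaling to depth, with totals of 14270069 to 22070594 per library; 27.0% of the values are not exactly whole.

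Counts were rounded, filtered with filterByExpr and scaled by TMM, and edgeR 4.0.16 (R 4.3.3) fitted the group alone (glmQLFit, robust). CPM use the TMM-scaled library sizes. The SE is the log2 fold change divided by the square root of F. Log2 CPM for likeness use a prior count of 2. Symbols matched 27728 identifiers; positions, exons and overlaps are from GENCODE M21. The script was tested on simulated counts with the same spread in both groups, so the unequal spread of these groups was not covered. Alternatives were scaling by RLE, by the upper quartile or by total counts, no filter or a minimum mean count of 50, limma 3.58.1 voom, DESeq2 1.42.0, a replicate block, summed TMRM-High libraries and each library left out. Named genes are all members, and in each of the 5 lists of AP-1 partners, upstream genes, targets, turnover genes and immediate early genes, up to 4 called genes of smallest p; others, marker genes among them, are named after their values were seen. Members and lists were chosen with earlier results of these data known. PCR copies are counted as reads, and the labels give no batch.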

Additional observations from a re-analysis of the deposited data

How the results depend on the processing

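Over all genes, 1324 were called higher and 1337 lower with DESeq2, and 80 and 34 with the TMRM-High libraries summed, a fit with 1 TMRM-High library and less power, beside 798 and 700. With 1 library left out, 250 to 1398 were higher and 181 to 1174 lower, with the fewest calls when a TMRM-High library was missing. Of the AP-1 genes, 2 were higher with summed TMRM-High libraries and 5 to 8 with 1 library left out; 1 (Batf) was lower with DESeq2 and with limma voom, and 0 to 1 with 1 library left out. Over the 5 related lists, 24 genes were higher and 3 lower; 10 were lower with DESeq2, 9 were higher and 0 lower with summed libraries, and 13 to 26 were higher and 2 to 7 lower with 1 library left out. Where not stated, the cause was not tested.

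Deviations of same-numbered libraries from their group means had correlations of -0.0139, 0.0165 and 0.0210. With 3 libraries a group and little spread among TMRM-High libraries, these values cannot decide whether the numbers pair them. With the replicate block 582 genes were higher and 449 lower, and 7 AP-1 genes were higher and 0 lower. In the related lists it left 19 higher and 2 lower, and among the genes named it ended the calls of Mapk3 (adjusted p = 0.0557), Mef2d (0.121), Mef2c (0.0852) and Bach1 (0.0583). The log2 difference of the summed AP-1 level ran from 0.65 to 0.73 over 3 other scalings and with 1 library left out, and each member kept its sign. Other scalings moved the median of all genes by under 0.1. With 3 libraries a group, outlying libraries were not tested.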
